A study of Mus musculus with 71 samples.

Results

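A small set of γδ intraepithelial lymphocytes (IELs) of the mouse small intestine carried messages of the early response genes Egr2, Egr3 and Nr4a3 at the time they were sorted. They were chosen from single-cell RNA sequencing of 6 pooled libraries by their unique molecular identifier (UMI) counts, where 1 UMI stands for 1 captured mRNA molecule. A cell was taken when it had at least 500 detected genes, at least 5 UMIs summed over the CD3 chains Cd3d, Cd3e and Cd3g, and at least 3 UMIs summed over Egr2, Egr3 and Nr4a3. Of 23994 barcodes, 23644 passed the first 2 filters, and 287 of these passed all 3. They are called activated cells here, and the remaining 23357 are called other cells. The name rests on the genes alone, since no time of stimulation was recorded for any cell. Because the rule used transcript counts of these same cells, every difference between activated and other cells is given as a description, with no test.

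The study compared Btnl2-KO mice with wild-type (WT) littermates, female and cohoused, on a C57BL/6 background, to ask whether the butyrophilin-like molecule Btnl2 acts on γδ IELs of different gut segments. In the Btnl2-KO allele the reporter LacZ, with a selection cassette behind it, was joined in frame to the first codon of Btnl2, which makes it null in every cell of the animal. IELs were released from duodenum, jejunum and ileum with EDTA at 37 °C, enriched on Percoll and sorted as CD45+ TCRβ- TCRγδ+ cells. The labels gave an age of 8 to 10 weeks for the single-cell libraries and of 10 weeks for the bulk libraries. The paper's text gives a slightly older age, the same for both kinds of library. There was 1 single-cell library for each segment and genotype, made from pooled mice, so the spread between mice within a segment and genotype could not be measured in these cells. The 22 bulk RNA-seq libraries (3 or 4 per segment and genotype, each also from pooled mice) came from cells sorted in the same way, in the study's methods from the same mice, and played no part in choosing the cells.

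γδ IELs sit between epithelial cells and recognise them through their T cell receptor and through natural killer-type receptors. Signalling from an antigen receptor switches on a set of early genes within minutes to hours: the zinc finger factors of the EGR family, the orphan nuclear receptors of the NR4A family, and, downstream of calcium, MAP kinase and NF-κB, the genes of chemokines and cytokines. Egr2 and Egr3 are known to restrain T cell responses through the inhibitors they induce, and NR4A factors are widely used as reporters of recent antigen receptor signalling.

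Each library held 3641 to 4696 barcodes and 19262295 to 28156801 UMIs. Btnl2 had 27, 11 and 6 UMIs in the WT libraries of duodenum, jejunum and ileum and 0, 1 and 0 in the Btnl2-KO libraries, whereas LacZ had 0 UMIs in the WT and 11 to 21 in the Btnl2-KO libraries. Any 2 libraries had 19 to 31 barcodes in common. A barcode also seen in another library was found for 16 of 287 activated cells (5.57%) and for 709 of 23357 other cells (3.04%), and 1 barcode was activated in 2 libraries. No doublet caller was run. The 14 γδ T cell receptor genes of the lists have no row in the tables, so the sort could be checked only through the CD3 chains and the markers of other cells. Of 5 B cell markers, 5 myeloid markers and 2 αβ T cell markers with a row, Ms4a1, Jchain, Lyz2 and Csf1r had no UMI in any activated cell, and Cd4 averaged 0.948 CPM (UMIs of a gene per 1000000 UMIs). The markers of B cells summed to 51.5 to 110 CPM in activated and 89.8 to 95.5 CPM in other cells, and the myeloid markers to 163 to 236 and 173 to 194 CPM. In each of these 2 lists 1 marker reached 20 CPM, and Cd79b and Cst3 had enough UMIs for the fits below. Outside the lists, ENSMUSG00000076617, the immunoglobulin mu gene Ighm by its identifier, was at 66.2 CPM in activated and 145 CPM in other cells. The 12 epithelial markers summed to 160 to 266 CPM in activated cells and 164 to 252 CPM in other cells.

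The promoters of a few leading genes are shown because 3 NR4A genes, which moved together, share a feature there. Each window holds the 250 bases before and the 50 bases from an annotated start (RefSeq, GRCm38.p6), written 5′ to 3′ on the strand of the gene. Capitals mark matches, on either strand, to the core of the cyclic AMP response element (TGACG), to the NFAT motif GGAAAA and to the CArG box bound by serum response factor.
Egr2, chr10:67537619-67537918, plus strand: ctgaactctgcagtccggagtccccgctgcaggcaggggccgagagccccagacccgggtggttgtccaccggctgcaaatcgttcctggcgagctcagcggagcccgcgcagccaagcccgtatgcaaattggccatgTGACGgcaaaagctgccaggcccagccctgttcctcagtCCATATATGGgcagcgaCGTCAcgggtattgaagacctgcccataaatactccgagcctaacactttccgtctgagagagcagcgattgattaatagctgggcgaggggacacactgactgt
Nr4a3, chr4:48045055-48045354, plus strand: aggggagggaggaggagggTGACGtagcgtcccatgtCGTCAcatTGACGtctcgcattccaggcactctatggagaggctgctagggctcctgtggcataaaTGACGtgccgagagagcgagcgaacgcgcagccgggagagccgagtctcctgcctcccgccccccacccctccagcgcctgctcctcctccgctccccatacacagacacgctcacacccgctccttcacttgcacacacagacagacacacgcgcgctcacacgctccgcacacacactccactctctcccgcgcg
Nr4a1, chr15:101266596-101266895, plus strand: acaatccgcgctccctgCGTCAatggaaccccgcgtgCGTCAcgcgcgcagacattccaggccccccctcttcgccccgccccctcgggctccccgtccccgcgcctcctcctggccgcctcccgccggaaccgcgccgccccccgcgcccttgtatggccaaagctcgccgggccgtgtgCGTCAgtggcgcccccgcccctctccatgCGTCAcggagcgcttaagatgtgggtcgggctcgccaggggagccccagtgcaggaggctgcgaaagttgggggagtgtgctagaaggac
Nr4a2, chr2:57123954-57124253, minus strand: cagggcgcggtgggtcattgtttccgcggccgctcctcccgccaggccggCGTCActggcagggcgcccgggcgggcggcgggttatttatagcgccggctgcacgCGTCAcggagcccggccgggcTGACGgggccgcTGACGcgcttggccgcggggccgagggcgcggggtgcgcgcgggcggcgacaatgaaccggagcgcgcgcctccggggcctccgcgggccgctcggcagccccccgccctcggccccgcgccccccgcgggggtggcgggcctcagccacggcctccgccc
Tnf, chr17:35201958-35202257, minus strand: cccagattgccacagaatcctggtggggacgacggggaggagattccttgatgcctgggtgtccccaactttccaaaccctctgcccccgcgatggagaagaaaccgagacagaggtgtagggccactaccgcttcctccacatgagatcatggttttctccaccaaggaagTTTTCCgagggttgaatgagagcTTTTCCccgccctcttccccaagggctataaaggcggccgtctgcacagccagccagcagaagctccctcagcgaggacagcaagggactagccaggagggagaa
The Nr4a1, Nr4a2 and Nr4a3 windows each held 4 matches to TGACG. Of all 32851 windows in the RefSeq table, 20.8% held at least 1 such match and 76 (0.231%) held 4 or more. The Egr2 window, at the third of 5 annotated starts, held 2 matches to TGACG and a CArG box, which 1.63% of windows hold. The Tnf window held 2 matches to GGAAAA, starting 78 and 55 bases before the start, against 23.4% of windows with at least 1. Of the 20 genes with the highest ratios described below, 15 had a window, and 6 of these held TGACG in any window (40.0%, against 23.0% of all 27025 genes with a window), 5 GGAAAA (33.3% against 26.1%), 3 the NR4A motif AGGTCA (20% against 18.1%), 2 the EGR motif GCGTGGG (13.3% against 5.74%), 1 the AP-1 motif TGACTCA (6.67% against 5.95%) and 1 a CArG box (6.67% against 1.81%). Egr2 and Nr4a3, which chose the cells, are among these 15 genes and among those with TGACG, and the CArG box was that of Egr2. A match of letters is not evidence of binding.

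Activated cells were found in every segment and in both genotypes. There were 40 in the WT and 57 in the Btnl2-KO library of the duodenum, 39 and 41 in the jejunum, and 42 and 68 in the ileum. As a share of cells this was 1.01% (95% exact binomial interval 0.724 to 1.38) and 1.45% (1.1 to 1.87) in the duodenum, 1.09% (0.773 to 1.48) and 1.08% (0.774 to 1.46) in the jejunum, and 1.13% (0.819 to 1.53) and 1.46% (1.14 to 1.85) in the ileum, where the intervals cover counting error only. The mean over the libraries was 1.2% ± 0.199 (SD, n = 6). The Btnl2-KO library was higher by 0.438 percentage points in the duodenum and 0.326 in the ileum and differed by -0.00878 points in the jejunum, a mean of 0.252 ± 0.232 (SD, n = 3 segments), close to the spread between segments. With 3 segments no test could pass (exact two-sided permutation test of the signs, p = 0.5, where 0.25 is the smallest p possible). The ileum exceeded the duodenum by 0.122 points in WT and 0.00984 points in Btnl2-KO, a difference that could not reach significance with 2 genotypes (exact permutation test, p = 0.5, the smallest possible).

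The number of activated cells depended on depth and on where the threshold stood. The sum over Egr2, Egr3 and Nr4a3 was 0 in 22349 cells, 1 in 823, 2 in 185, 3 in 94, 4 in 42 and 5 in 42, and reached 56 in the highest cell, so 94 of the 287 activated cells lay just inside the threshold and 185 other cells just outside it. Activated cells were somewhat deeper than other cells, with a median of 5366 to 6566 UMIs per library against 4851 to 5452. With every cell thinned to 3000 UMIs, the share fell to 0.623% over all cells, and with at least 5 UMIs asked for, to 0.639%. The median mitochondrial share was 2.81 to 3.25% in activated and 3.33 to 3.57% in other cells, and no activated cell but 142 other cells had more than 10% mitochondrial UMIs. Activated cells were no thinner in CD3, with a median of 45 to 62 UMIs of the 3 chains against 41.5 to 48.

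The 3 genes of the rule were often found in the same cell. Egr2 had a UMI in 76.3% of activated cells and 1.48% of other cells, Egr3 in 64.1% and 0.646%, and Nr4a3 in 55.7% and 2.46%. All 3 were seen in 66 activated cells, 2 of them in 144 and 1 in 77. Because the rule sums the 3, each was also looked at in cells chosen by the other two. Egr2 was seen in 85 of 153 cells (55.6%) with at least 3 UMIs of Egr3 and Nr4a3, Egr3 in 111 of 214 (51.9%) with at least 3 UMIs of Egr2 and Nr4a3, and Nr4a3 in 79 of 206 (38.3%) with at least 3 UMIs of Egr2 and Egr3.

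To describe what else these cells expressed, UMIs were summed over the activated and over the other cells of each library, and log2 ratios of CPM + 1 were averaged over the 6 libraries. Of 6059 genes with at least 20 CPM in either class, 79 (1.3%) were at least 2-fold higher on average and higher in all 6 libraries, and 46 (0.759%) were at least 2-fold lower and lower in all 6. Without the fold limit, 332 (5.48%) were higher and 669 (11%) lower in all 6, and the median ratio of all 6059 genes was -0.11. In the paragraphs that follow, ratios are log2 with the SD over 6 libraries, and "2-fold" always means 2-fold on average and in the same direction in all 6 libraries. A gene could reach 20 CPM through the activated cells alone, so counts and medians over genes with 20 CPM depend in part on the ratios themselves. For several lists the median over all listed genes is therefore given as well. The gene lists were drawn up for this description with earlier results of these data known.

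The rest of the EGR and NR4A families stood out together with the genes of the rule. Nr4a1, also called Nur77, was at 802, 938, 822, 567, 709 and 731 CPM in activated cells of duodenum WT and KO, jejunum WT and KO, and ileum WT and KO, against 9.1, 8.49, 6.82, 7.52, 12.6 and 10.5 CPM in other cells. Every activated sum was far above every other sum, with a ratio of 6.24 ± 0.39. Egr1 was at 912 against 43 CPM (4.35 ± 0.34) and Nr4a2 at 1560 against 150 CPM (3.37 ± 0.27). Nab2 (1.87 ± 0.28) and Nab1 (0.92 ± 0.41), corepressors that bind EGR proteins, were also higher in all 6 libraries. Of the 6 genes of this list, 5 reached 20 CPM and 4 were 2-fold higher, with a median ratio of 3.37 (2.62 over all 6). In share of cells, Nr4a1 had a UMI in 71.4% of activated and 2.74% of other cells, and in 59.8% and 1.78% after thinning to 3000 UMIs. No cell type that should lack these genes was in the sort, so the share in other cells is the only comparison.

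AP-1 did not follow the EGR and NR4A genes. Fos, the best known early gene of that family, was at 464 CPM in activated and 467 CPM in other cells (ratio 0.0 ± 0.33), and Jun was lower in all 6 libraries, at 126 against 270 CPM (-1.15 ± 0.57). Fosl2 (2.93 ± 0.33) and the cyclic AMP-responsive repressor Crem (1.82 ± 0.56) were 2-fold higher, and Junb was higher by only 0.30 ± 0.10. Of 13 AP-1 and ATF genes, 9 reached 20 CPM, 2 of them were 2-fold higher and 1 lower, and the median was 0.08. In the list of NFAT, NF-κB and IRF factors, 5 of 8 genes with 20 CPM were 2-fold higher: Rel (2.02 ± 0.36), Irf8 (1.74 ± 0.22), Relb (1.36 ± 0.48), Nfatc1 (1.19 ± 0.31) and Nfkb2 (1.15 ± 0.30). Nfatc2, Rela and Nfkb1 were not.

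Genes that damp antigen receptor and NF-κB signalling were in part raised. Nfkbid, a nuclear IκB protein, was at 477 against 28.4 CPM (3.96 ± 0.46), and Nfkbia, which holds NF-κB in the cytosol, at 561 against 136 CPM (2.01 ± 0.35). Rgs16, an inhibitor of G protein signalling (3.07 ± 1.0), Zfp36l1, which shortens the life of cytokine mRNAs (2.10 ± 0.29), the calcineurin inhibitor Rcan1 (2.10 ± 0.85), the phosphatases Dusp5 (1.78 ± 0.49) and Dusp2 (1.44 ± 0.24) and Spry2 (1.52 ± 0.48) completed the 8 genes of 27 with 20 CPM that were 2-fold higher. Socs3, an inhibitor of cytokine receptor signalling, was 2-fold lower (-1.60 ± 1.56, on 17 UMIs in activated cells), and Socs1 was lower in all 6 libraries without reaching 2-fold (-0.81 ± 0.39). The inhibitory receptors Lag3 (0.18 ± 0.18) and Tigit (0.43 ± 0.22) were nearly level, Pdcd1 was higher in 5 of 6 libraries (1.15 ± 1.32), and Ctla4 and Havcr2 lay under 20 CPM. Over the 27 genes the median was 0.38, and over all 32 listed genes 0.24.

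Among secreted products, the chemokines stood highest. Ccl4, a chemokine that attracts T cells and monocytes, was at 7240, 8010, 13200, 5320, 9830 and 6930 CPM in activated cells, in the library order used above, and at 343, 326, 466, 367, 500 and 406 CPM in other cells. Xcl1, which attracts cross-presenting dendritic cells, was at 4150, 3480, 2480, 7610, 1860 and 4520 CPM against 293, 287, 169, 194, 192 and 185 CPM. The classes did not overlap for either gene, with ratios of 4.35 ± 0.35 for Ccl4 and 4.07 ± 0.74 for Xcl1. Ccl3 was at 1800 against 143 CPM (3.58 ± 0.37) and Cxcl10 at 25.6 against 3.37 CPM (2.48 ± 0.98). Ccl5, which resting IELs already hold in large amounts, was at 36800 against 39200 CPM (-0.10 ± 0.19). Of 7 chemokine genes, 5 reached 20 CPM and 4 of these were 2-fold higher, Ccl5 being the exception, with a median of 3.58. Over all 7 the median was 2.48.

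Cytokines were more selective. Tnf was at 193, 84.3, 169, 216, 67.3 and 131 CPM in activated cells and between 3.47 and 6.48 CPM in other cells (4.58 ± 0.86). Csf2, which encodes GM-CSF, was at 59.4 against 6.96 CPM (2.81 ± 0.85) and Ifng at 91.6 against 20.7 CPM (1.87 ± 0.83). Those 3 were the genes of the cytokine list that were 2-fold higher, out of 18, of which 12 did not reach 20 CPM. The median was 1.17 over the 6 with 20 CPM and -0.03 over all 18. Il2 was not seen in any activated cell. With 1907149 UMIs a count of 0 allows up to 1.57 CPM, and the other cells in all had 1.69 CPM (215 UMIs), so Il2 was at least 1.07-fold lower and the depth could show no more. Il3, Il4, Il10, Il13, Il17a and Il22 were at 0 UMIs in activated cells and at most 0.258 CPM in other cells. In the TNF superfamily, Tnfsf14, known as LIGHT (182 against 11.3 CPM, 3.85 ± 0.54), and Tnfsf9, the ligand of 4-1BB (2.10 ± 0.95), were 2-fold higher, and Fasl was higher by 0.73 ± 0.33.

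The cytolytic store was nearly level between the classes. Gzma was at 35800 CPM in activated and 33400 CPM in other cells (0.08 ± 0.25), Gzmb at 6640 and 6570 CPM (-0.03 ± 0.38) and Prf1, which encodes perforin, at 82.8 and 61.1 CPM (0.39 ± 0.31). None of 10 granule genes with 20 CPM was 2-fold higher or lower. Srgn, the proteoglycan on which granule proteins are packed, was higher in all 6 libraries (2900 against 1660 CPM, 0.80 ± 0.13), as was Nkg7 (0.23 ± 0.12). The list median was 0.05.

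Activation and costimulatory receptors were mixed. Cd83 (3.44 ± 1.29), Cd69 (1.79 ± 0.42), Tnfrsf9, which encodes 4-1BB (1.31 ± 0.30), Tnfrsf1b (1.10 ± 0.14) and Cd27 (1.04 ± 0.25) were 2-fold higher, 5 of 11 genes with 20 CPM. The median was 0.21 over these 11 and -0.04 over all 15 listed genes. Il7r, the receptor chain for the survival cytokine interleukin 7, was 2-fold lower, at 8.23 against 34.6 CPM (-1.99 ± 0.57), while Il2rb and Il2rg differed by 0.16 ± 0.12 and 0.21 ± 0.13. Of the growth list, Myc (143 against 25.7 CPM, 2.37 ± 0.42) and the spermidine synthase gene Srm (1.04 ± 0.56) were 2-fold higher among 19 genes with 20 CPM, whose median was 0.38. Genes of the S and G2/M phases showed no common direction (median -0.14, 0 of 10 in the same direction in all 6 libraries), and Mki67 lay under 20 CPM in both classes.

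Antigen receptor and residency genes were close to level. The 11 genes of the antigen receptor complex with 20 CPM had a median of 0.13 and none was 2-fold changed, although Cd8a was higher in all 6 libraries (2570 against 1760 CPM, 0.53 ± 0.19). The residency genes had a median of -0.13, with Itgae, the CD103 chain that binds E-cadherin, at 863 against 945 CPM (-0.13 ± 0.10) and Cd160 at 884 against 605 CPM (0.49 ± 0.36). Of 14 interferon-induced genes, 6 reached 20 CPM, with a median of -0.22 and none 2-fold changed. Of 15 heat shock and tissue dissociation genes with 20 CPM, 1 was 2-fold higher, the early gene Ier2 (719 against 250 CPM, 1.52 ± 0.12), and the median was 0.17. Hspa1a was at 17.6 against 35.1 CPM (-2.60 ± 1.99, lower in 5 of 6 libraries). The part of the 37 °C isolation in the early response genes was not tested.

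By the size of the ratio, the 20 highest genes were, after the 3 of the rule, Nr4a1, Tnf, Egr1, Ccl4, Tagap, Xcl1, Rasgef1b, Nfkbid, Tnfsf14, Ccl3, Cd83, Nr4a2, Rgs16, Tgif1, Fosl2, Csf2 and Crtam. Tagap, a gene induced in activated T cells, was at 382 ± 128 CPM in activated cells (4.13 ± 0.50), and Crtam, a receptor that activated cytotoxic lymphocytes display, at 312 against 38 CPM (2.75 ± 0.89). The 20 lowest genes had ratios of only -1.99 to -1.19. Il7r led them, followed by the repressor Gfi1 (-1.90 ± 0.59), Ms4a4b (-1.70 ± 0.58) and Socs3, and they included Pik3ip1, an inhibitor of PI3 kinase (-1.42 ± 0.59), and Tsc22d3, a glucocorticoid-induced gene, which was the steadiest (49.1 CPM in activated cells, -1.24 ± 0.11). Il7r, Gfi1, Ms4a4b and Socs3 rested on only 15, 18, 31 and 17 UMIs over all activated cells. Socs3 had none in the jejunum KO library, where its ratio was -4.6. Klf2, a factor of quiescent and circulating T cells, had a ratio of -2.58 ± 1.11 but rested on few UMIs (1.06 against 8.67 CPM) and lay under 20 CPM. S1pr1, a Klf2 target, had no UMI in activated cells, which makes it at least 2.09-fold lower than the 3.29 CPM of all other cells together.

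When cells were ordered by their UMIs of Egr2, Egr3 and Nr4a3, most of these genes climbed in steps that began below the threshold. Ccl4 was at 344 CPM in cells with none, 1140 with 1, 2960 with 2, 5480 with 3, 7560 with 4 or 5, 7810 with 6 to 9 and 15500 with 10 or more. Over the same steps Nr4a1 rose from 5.56 to 53.6, 198, 309, 550, 677 and 2260 CPM, although it is no gene of the rule. Tnf and Xcl1 rose less evenly. Tnf went from 3.96 CPM in cells with none to 45.5 with 2 and 80.1 with 3, but was 60.1 with 4 or 5, and reached 384 with 10 or more. Xcl1 was at 194 CPM in cells with none, 2130 with 3, 1350 with 4 or 5 and 13400 with 10 or more. Ifng and Csf2 behaved differently: Ifng stayed between 20.9 and 38.9 CPM up to 5 UMIs and was 77.4 CPM with 6 to 9 and 325 CPM with 10 or more, and Csf2 was at most 32.5 CPM below 10 UMIs and 220 CPM above. Gzma lay between 32400 and 39700 CPM up to 9 UMIs and was 23300 CPM in the top step, and Il7r fell from 35.7 CPM to 3.54 CPM with 4 or 5 and was 13.1 CPM in the top step. The top step held 43 cells, 6 to 11 per library. Their Ccl4 ranged from 3410 CPM in the jejunum KO library to 25500 in jejunum WT, and their Xcl1 from 1500 in ileum WT to 24200 in jejunum KO, so few cells decided each value.

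**Figure D1:**
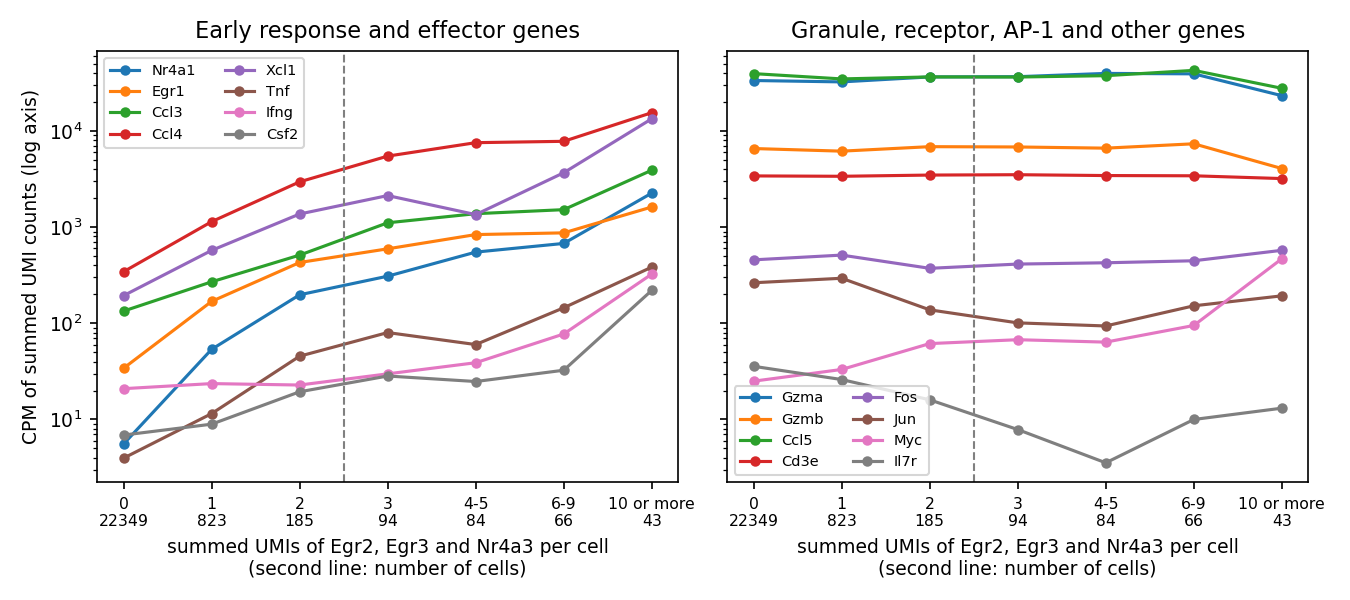
CPM of 16 genes (vertical log axis, UMIs summed over cells of all 6 libraries) against the summed UMIs of Egr2, Egr3 and Nr4a3 in a cell, with the number of cells in each step under the axis and a dashed line at the threshold of 3. Ccl4 climbs from 344 to 15500 CPM across the steps, while Cd3e lies between 3200 and 3510 CPM throughout and Gzma between 32400 and 39700 CPM until the top step.

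UMIs of all effector genes were seldom seen in the same cell, and a message of low level can be missed in a cell that holds it. With cells thinned to 3000 UMIs, which left out 6 activated and 1643 other cells, 6 genes were followed: Ccl3, Ccl4, Xcl1, Tnf, Ifng and Csf2. At least 3 of them were seen in 91 of 281 activated cells (32.4%, from 22% to 41% across libraries) and in 586 of 21714 other cells (2.7%). None was seen in 11 activated cells (3.91%) and 6410 other cells (29.5%), and all 6 in 1 activated cell. Single genes had a UMI in 77.2% of activated cells for Ccl4, 39.5% for Xcl1, 21.7% for Tnf, 13.5% for Ifng and 7.47% for Csf2, against 42.7%, 18.3%, 1.16%, 5.93% and 1.9% of other cells. Unthinned, the shares were 80.5%, 43.9%, 32.8%, 20.2% and 10.5% against 52.5%, 21.8%, 2.05%, 9.11% and 3.17%.

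Ccl4 and Xcl1 tended to lie in different cells. Ccl4 was seen in 60 of 111 activated cells with Xcl1 (54.1%) and in 92.4% of those without, and among other cells in 14.2% with and 49.1% without Xcl1. Of 161 activated cells with Ccl3, 159 also had Ccl4 (98.8%) but only 41 had Xcl1 (25.5%), against 48.3% and 58.3% of those without Ccl3. Csf2 went the other way: 18 of 21 activated cells with Csf2 had Xcl1 (85.7%) and 9 had Ccl4 (42.9%). Without Csf2 these shares were 35.8% and 80%. Ccl4 was seen in 37 of 38 activated cells with Ifng (97.4%) and in 74.1% of those without. In activated cells with Tnf, Xcl1 was seen in 52.5% and Ccl4 in 80.3%, against 35.9% and 76.4% of those without Tnf. These are counts over cells of all libraries and carry no test.

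Other genes followed the same division. After these values were seen, activated cells were split by Xcl1 itself: 99 had 3 or more Xcl1 UMIs (16, 25, 9, 15, 10 and 24 in the library order used above), 161 had none and 27 had 1 or 2. Ratios in this split used CPM + 10, over 3251 genes with at least 50 CPM in either kind, and have no test, since the split was chosen on the same counts. Of these genes, 270 were higher and 192 lower in all 6 libraries in cells with Xcl1, with a median ratio of -0.01 over all 3251. Crtam was at 570, 456, 586, 1640, 370 and 917 CPM in cells with Xcl1 and at 9.01, 10.5, 25.3, 17.1, 19.8 and 29.4 CPM in cells without, the largest ratio found (4.61 ± 0.78). Id3, an inhibitor of E proteins (209 against 1.84 CPM, 3.97 ± 1.27), and Tcf7, which encodes TCF1, a factor of less differentiated T cells (142 against 2.38 CPM, 3.57 ± 0.80), followed, with Csf2 (156 against 5.55 CPM), Tnfsf14 (384 against 52.3 CPM), Myc (333 against 44.4 CPM) and Nfkb1 (90.7 against 11.4 CPM). Cd160 was at 1460 against 480 CPM. All of these were higher in cells with Xcl1 in all 6 libraries.

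The cytolytic genes had the opposite pattern. Gzma was at 9410, 32900, 26700, 8050, 4670 and 5420 CPM in activated cells with Xcl1 and at 50600, 52400, 48600, 47600, 48600 and 52500 CPM in those without (-2.20 ± 1.17), so the kinds did not overlap. Gzmb was at 2330 against 9230 CPM (-2.40 ± 1.20), Ccl5 at 18400 against 50000 CPM (-1.62 ± 0.84), Prf1 at 33 against 117 CPM (-1.56 ± 0.59) and Tyrobp, the adaptor DAP12 of natural killer receptors, at 616 against 1560 CPM (-1.58 ± 0.84). The early response genes differed less: Egr2 was at 582 and 440 CPM (0.19 ± 1.08), Egr1 at 905 and 967 CPM (-0.24 ± 0.90), Nr4a1 at 999 and 614 CPM (0.59 ± 0.70) and Tnf at 210 and 107 CPM (0.62 ± 1.06), whereas Nr4a3 was higher with Xcl1 in all 6 libraries (395 and 188 CPM, 0.95 ± 0.63).

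The same division was seen in other cells. Among them, 2737 (11.7%) had 3 or more Xcl1 UMIs, against 34.5% of activated cells, and they too had more Id3 (207 against 23.4 CPM), Tcf7 (209 against 32.4 CPM) and Cd160 (1240 against 439 CPM) and less Gzma (6010 against 40700 CPM) and Gzmb (1140 against 8040 CPM) than other cells with no Xcl1, in all 6 libraries. Crtam, Csf2 and Myc differed more between activated and other cells: in other cells with Xcl1 they were at 88.2, 30.8 and 43.5 CPM, and in activated cells with Xcl1 at 756, 156 and 333 CPM. Rcan1 was at 80.1 CPM in activated cells with Xcl1 and 9.75 CPM in those without, and at 7.21 and 6.4 CPM in the same kinds of other cell. Activated cells with Xcl1 had a median of 5856 to 9412 UMIs per library and those without 5220 to 6727, and the part of this depth difference in these values was not tested.

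**Figure D2:**
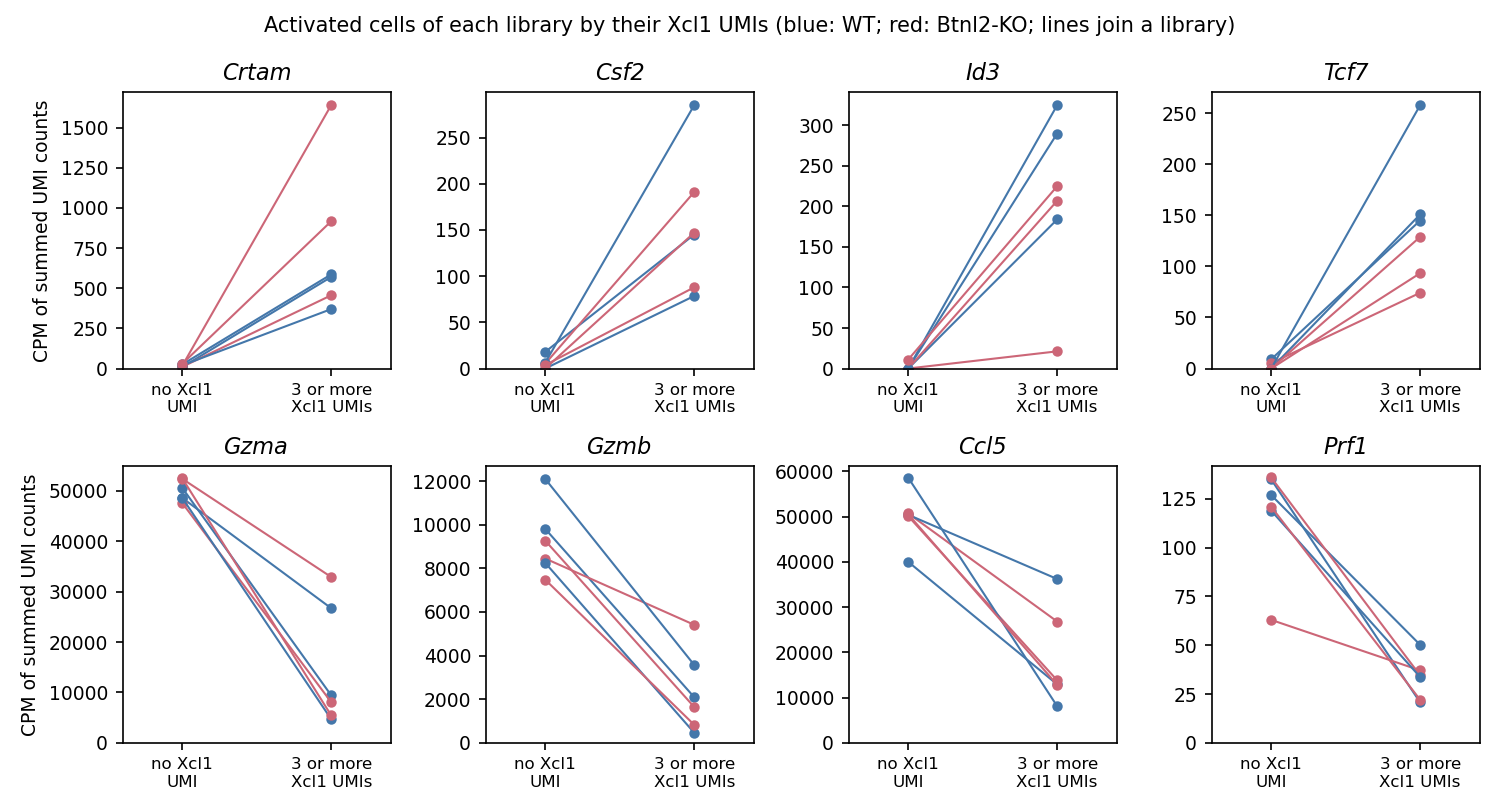
CPM of 8 genes (vertical axes from 0) in activated cells with no Xcl1 UMI (left) and with 3 or more (right), with 1 line per library (blue WT, red Btnl2-KO). Crtam, Csf2, Id3 and Tcf7 rise and Gzma, Gzmb, Ccl5 and Prf1 fall from left to right in all 6 libraries.

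To ask whether Btnl2 loss changed the activated cells, UMIs summed per library were compared between genotypes with segment as a block (edgeR quasi-likelihood test, 4482 genes, false discovery rate below 0.05 and fold above 1.5). Here the replicates are the 3 segments, each with 1 pooled library per genotype, so p-values hold no spread between mice. With so few libraries edgeR draws the spread of each gene toward that of all 4482 genes. A p-value can thus be small for a gene whose genotype difference varies between segments. By the study's methods, the segments of a genotype came from the same mice, so the test sets 1 pool of mice against another, and genotype and pool cannot be told apart. Only 6 genes (0.134%) passed, 4 higher (0.0892%) and 2 lower (0.0446%) in Btnl2-KO. Crtam (log2 change 1.24, SE 0.20, edgeR adjusted p = 0.000265), Gm156, a lectin-like receptor gene also called Klrh1 (1.30, SE 0.21, adjusted p = 0.000265), Klre1, a receptor of natural killer cells (1.51, SE 0.31, adjusted p = 0.00912), and Xcl1 (0.91, SE 0.19, adjusted p = 0.00912) were the genes higher in Btnl2-KO cells. Cd69, an early activation antigen that also holds T cells in tissue (-0.73, SE 0.14, edgeR adjusted p = 0.00639), and Nfkbid (-0.71, SE 0.15, adjusted p = 0.00912) were lower. Nr4a1, Ccl4 and Tnf differed by -0.04, -0.53 and 0.02, without passing (edgeR adjusted p of 0.725 or more). Egr2, Egr3 and Nr4a3 are not compared here, since they chose the cells.

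The genotype differences of Xcl1 and Crtam were uneven between segments. Xcl1 was at 3480 CPM in the Btnl2-KO and 4150 CPM in the WT library of the duodenum, 7610 and 2480 CPM in the jejunum, and 4520 and 1860 CPM in the ileum, so Btnl2-KO was higher in jejunum and ileum and not in duodenum. Crtam was at 218 and 224 CPM in the duodenum, 749 and 164 CPM in the jejunum, and 375 and 142 CPM in the ileum. In other cells Crtam lay between 35.6 and 40.6 CPM in all 6 libraries. Few cells carried the counts: the 3 highest cells of a library held 37.1 to 84% of its activated Xcl1 UMIs and 40.6 to 76.9% of its Crtam UMIs. Cells with 3 or more Xcl1 UMIs made up 40%, 23.1% and 23.8% of activated cells in the WT libraries of duodenum, jejunum and ileum and 43.9%, 36.6% and 35.3% in the Btnl2-KO libraries, higher in Btnl2-KO in each segment, a comparison chosen after the values were seen and not tested.

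Cd69 and Nfkbid fell in every segment. Cd69 went from 606 to 414 CPM in the duodenum, 717 to 324 CPM in the jejunum and 659 to 422 CPM in the ileum, and Nfkbid from 660 to 382, 616 to 274 and 521 to 410 CPM, so the genotypes did not overlap for either gene. Gm156 was at 158, 46.4 and 95.7 CPM in WT and 241, 282 and 219 CPM in Btnl2-KO activated cells, but it was also higher in Btnl2-KO among other cells of each segment, at 133 to 163 CPM against 94.7 to 110 CPM. Klre1 rested on 4 to 37 UMIs per library.

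In a joint fit of activated and other cells (12 sums, 6 per class), the genotype difference itself differed between the classes for 5 genes (0.112%), more positive in activated cells for 3 (0.0669%) and more negative for 2 (0.0446%): Crtam (1.21, SE 0.19, edgeR adjusted p = 3.84e-06), Xcl1 (0.84, SE 0.13, adjusted p = 3.84e-06), Gm156 (0.82, SE 0.20, adjusted p = 0.044), Nfkbid (-0.68, SE 0.16, adjusted p = 0.0189) and Cd69 (-0.61, SE 0.13, adjusted p = 0.00636). DESeq2 on the same sums called 0 genes in both fits, where 15 and 37 genes had an unadjusted p under 0.05 against 257 and 225 with edgeR. Without the jejunal WT library 0 genes passed in either fit and without the jejunal KO library 1 and 0, and without the cells with 10 or more UMIs of Egr2, Egr3 and Nr4a3 the genotype calls of Cd69 and Nfkbid were lost (-0.41 and -0.51, edgeR adjusted p = 0.651 and 0.258).

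**Figure D3:**
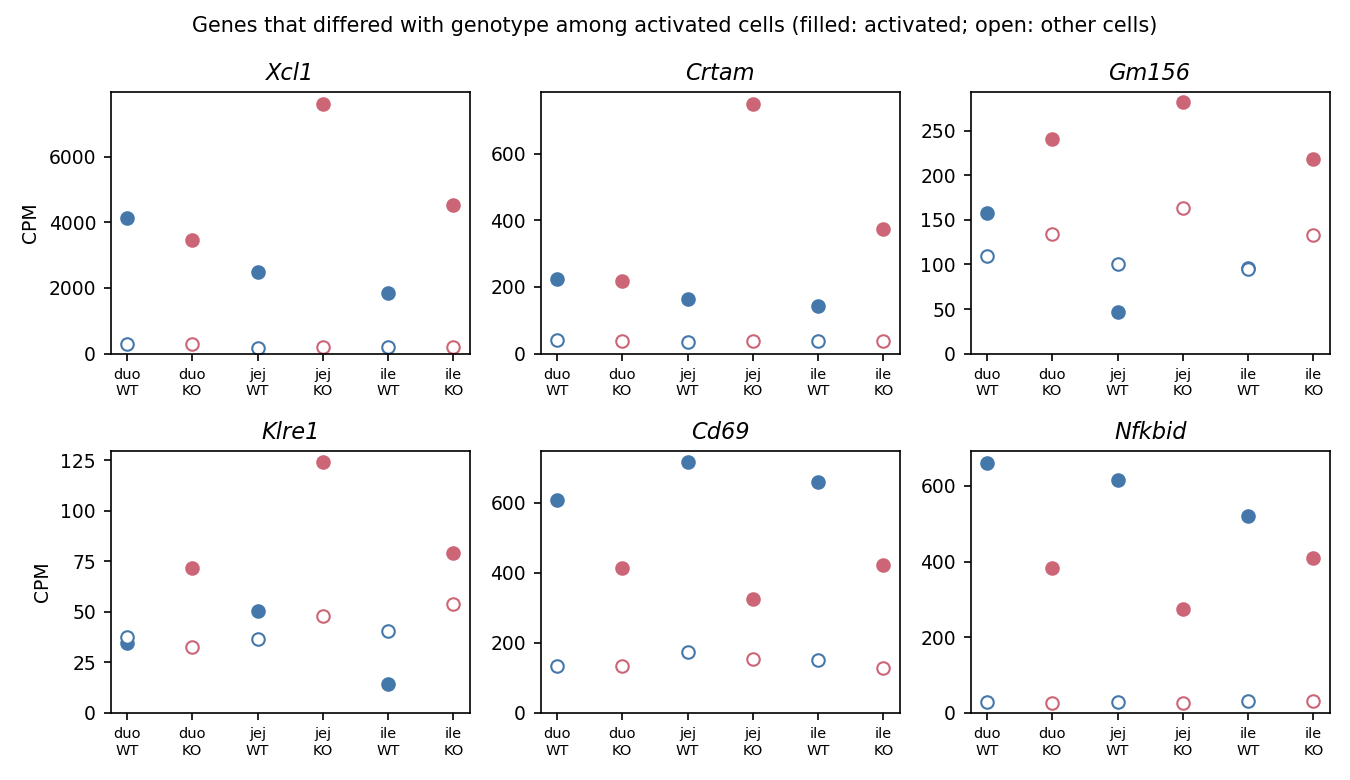
CPM (vertical axes from 0) of the 6 genes that passed the genotype test in activated cells, in each of the 6 libraries (blue WT, red Btnl2-KO), with filled points for activated and open points for other cells. Crtam and Xcl1 are highest in the jejunum KO library at 749 and 7610 CPM, and in activated cells Cd69 and Nfkbid lie lower in the Btnl2-KO library of each segment.

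Between segments, 12 genes (0.268%) passed the same test of ileum against duodenum in activated cells, with genotype as a block, 3 higher (0.0669%) and 9 lower (0.201%) in the ileum. None belonged to the EGR, NR4A, chemokine or cytokine lists. Phb2, a mitochondrial prohibitin (1.02, SE 0.23, edgeR adjusted p = 0.0199), the stress gene Gadd45b (0.95, SE 0.20, adjusted p = 0.0153) and the intermediate filament gene Vim (0.79, SE 0.17, adjusted p = 0.0158) were higher. Lower were the natural killer-type receptor gene Klra5 (-2.81, SE 0.38, edgeR adjusted p = 3.2e-06), the gene ENSMUSG00000076617, the immunoglobulin mu constant region gene Ighm by its identifier (-1.62, SE 0.34, adjusted p = 0.0107), the serpin gene Serpina3g (-1.50, SE 0.21, adjusted p = 3.44e-06), and the opposed apoptosis regulators Bcl2l11, which encodes BIM (-1.49, SE 0.26, adjusted p = 0.000497), and Bcl2 (-1.35, SE 0.18, adjusted p = 3.2e-06).

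Bcl2 was at 598 and 479 CPM in activated cells of the duodenal WT and KO libraries, 325 and 185 CPM in the jejunum, and 209 and 208 CPM in the ileum, against 453 and 481, 343 and 301, and 285 and 251 CPM in other cells. The decline from duodenum to ileum was thus found in both classes. It was larger in activated cells (-0.55, SE 0.18, edgeR unadjusted p = 0.00299), but this did not pass over all tested genes (edgeR adjusted p = 0.705). Other cells also shifted the same way for Bcl2l11 (61.8 and 67.6 CPM in duodenal WT and KO, 41.8 and 41 in ileal). The same held for Ighm (187 and 193, then 99.3 and 92.6), Vim (414 and 404, then 639 and 626) and Gadd45b (60.6 and 62, then 101 and 96.8). For none of these genes did the change between classes pass. For 5 genes (0.112%) the change of the segment difference between classes passed, 1 more positive (0.0223%) and 4 more negative (0.0892%) in activated cells: Klra5 (-2.34, SE 0.39, edgeR adjusted p = 7.79e-05), Serpina3g (-1.14, SE 0.21, adjusted p = 0.000277), Tuba1b, a tubulin gene (-1.06, SE 0.22, adjusted p = 0.00628), Gzmb (-0.64, SE 0.15, adjusted p = 0.0282) and Phb2 (0.97, SE 0.23, adjusted p = 0.0282). Gzmb was at 6920 and 7100 CPM in duodenal and 5510 and 5000 CPM in ileal activated cells, but at 6270 and 5970 and at 7480 and 6600 CPM in other cells. Klra5 in ileal activated cells rested on 4 and 9 UMIs. DESeq2 called 0 genes in both of these fits (18 and 26 genes at an unadjusted p under 0.05, against 251 and 189 with edgeR), and the counts fell to 3 without the ileal KO and rose to 26 without the duodenal WT library in the first, and fell to 1 without the duodenal KO and rose to 13 without the duodenal WT library in the second. Bcl2 and Serpina3g passed the segment test in activated cells with any 1 library left out, at an edgeR adjusted p of at most 0.0119.

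The bulk libraries, which hold mostly cells that are not activated, show the 3 genes of the rule at lower CPM than activated cells. Bulk CPM rest on reads and single-cell CPM on UMIs, so the scales differ. In other cells Egr2, Egr3 and Nr4a3 averaged 3.18, 1.34 and 4.85 CPM. Bulk totals were 13444958 to 30029485 expected counts, and fewer cells of a kind and less RNA per cell cannot be told apart in bulk. Egr2 was at 8.31 to 26.4 CPM over the 22 libraries, with a median of 13.9, Nr4a3 at 3.03 to 19.1 (median 7.06) and Egr3 at 1.3 to 13.7 (median 3.89). In the ileum, Egr2 was at 17.5, 8.31, 9.8 and 14.3 CPM in WT and 17.5, 15.6 and 26.4 CPM in Btnl2-KO libraries, and the groups overlapped. The epithelial markers were abundant, with a mean of 3.77 to 8.87 on the log2 CPM scale, and differed widely between libraries. In the ileum the mean was 6.87, 8.18, 7.71 and 7.51 in WT and 6.65, 5.48 and 7.17 in Btnl2-KO libraries. The part of this in the ileal genotype differences of single genes was not tested.

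In bulk RNA, none of the 3 rule genes passed between genotypes in any segment (edgeR quasi-likelihood test on rounded expected counts, same thresholds). On simulated counts these fits found only 41.8% in duodenum, 8.96% in jejunum and 16.4% in ileum of the genes changed by a fold of 2. A gene that did not pass may thus still differ. Between Btnl2-KO and WT, 1 of 12680 genes passed in the duodenum (0.00789%), which was Btnl2, 1 of 12594 in the jejunum (0.00794%), Btnl2 again, and 0 of 12604 in the ileum (0%). There, 1108 genes reached an unadjusted p of 0.05, and DESeq2 called 221. Egr2, Egr3 and Nr4a3 differed by 0.69 (SE 0.31), 0.99 (SE 0.50) and 0.38 (SE 0.45) in the ileum, with edgeR adjusted p = 0.569, 0.58 and 0.803. Xcl1 and Crtam, which passed the genotype test in activated cells, did not pass in bulk: in the jejunum they differed by 0.94 (SE 0.35) and 0.37 (SE 0.15), both at an edgeR adjusted p = 0.583, in the ileum by 0.36 (SE 0.41) and 0.40 (SE 0.18), and in the duodenum by -0.30 (SE 0.22) and -0.03 (SE 0.12). Cd69, which was lower in activated Btnl2-KO cells, differed in bulk by -0.03 (SE 0.16) in duodenum, 0.12 (SE 0.22) in jejunum and 0.05 (SE 0.18) in ileum, and Nfkbid by 0.0 (SE 0.17), -0.20 (SE 0.20) and 0.44 (SE 0.23), without passing.

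Between WT ileum and duodenum, 271 of 12535 genes (2.16%) passed in bulk. Egr2 (0.20, SE 0.27), Egr3 (0.06, SE 0.35) and Nr4a3 (-0.46, SE 0.25) were not among them, with edgeR adjusted p = 0.875, 0.977 and 0.611, nor was any EGR, NR4A, chemokine or cytokine gene of the lists. From the lists of T cell genes, those that passed were Socs3 (1.79, SE 0.32, edgeR adjusted p = 0.012) and Cd44 (0.66, SE 0.14, adjusted p = 0.0274), higher in the ileum, and Tnfsf8, which encodes CD30 ligand (-1.13, SE 0.23, adjusted p = 0.027), lower. The bulk libraries also held epithelial RNA, and the cells in which these genes differed were not tested. The largest rise was that of Fabp6, a bile acid carrier of ileal epithelium (12.80, SE 0.41, edgeR adjusted p = 2.15e-08), and with the mean of the 12 epithelial markers as a covariate 503 genes passed.

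**Figure D4:**
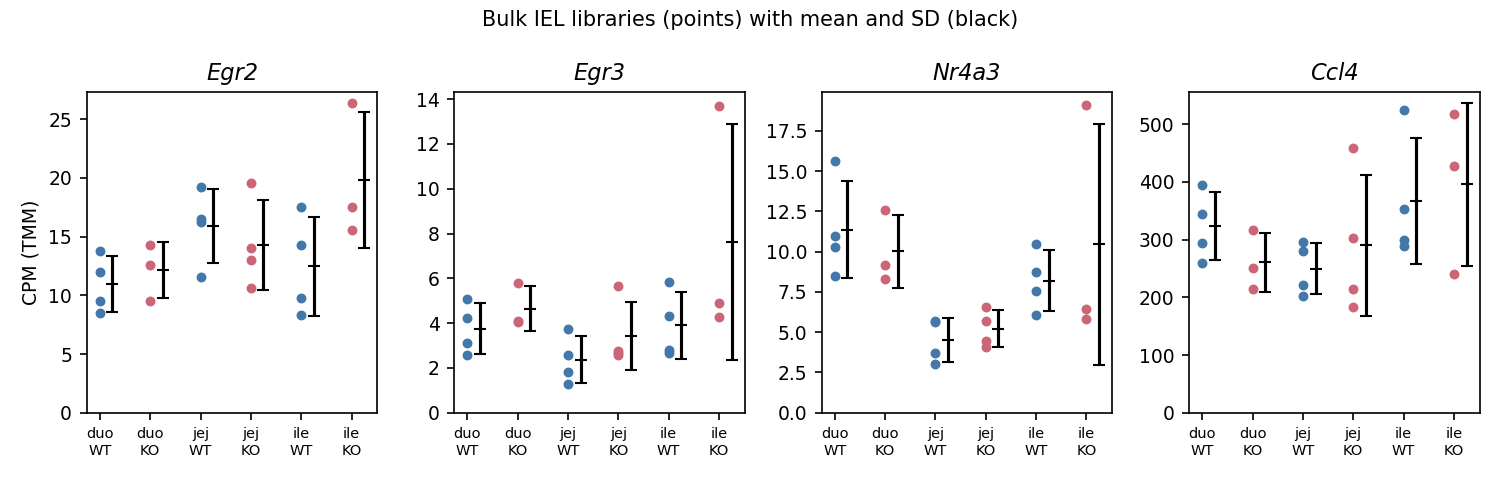
TMM-scaled CPM (vertical axes from 0) of Egr2, Egr3, Nr4a3 and Ccl4 in the 22 bulk IEL libraries, with 1 point per library (blue WT, red Btnl2-KO) and the group mean and SD in black beside them. The points of WT and Btnl2-KO overlap in each segment for all 4 genes, and 1 ileal Btnl2-KO library holds the highest Egr3 and Nr4a3, 13.7 and 19.1 CPM.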

How the data were processed

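The single-cell tables held UMI counts per gene and cell, which the authors made with Cell Ranger (10x 5′ libraries, mm10, RefSeq genes) and deposited unnormalised. The bulk table held expected counts of sense-strand exon reads per gene from the RSEM method of ArrayStudio, as deposited by the authors, and these were rounded to whole numbers. Of its columns, 1 matched no sample and was not used. Each single-cell library was 1 pool, so n counts libraries. The members and gene lists were chosen with earlier results of these data known. UMIs were summed over activated and other cells of each library. Groups were compared with the edgeR 4.0.16 quasi-likelihood test (R 4.3.3, TMM, genes with 10 counts in at least 3 single-cell sums or in the smallest bulk group, false discovery rate 0.05 and fold 1.5), and segment or genotype was a block in single-cell fits. The steps were tested on simulated data. DESeq2 1.42.0, other filters, thinning to 3000 UMIs and each library left out were alternatives. Genes were named if they were list members, among the 20 highest or 20 lowest ratios of genes with at least 20 CPM and 1 direction in all 6 libraries, or among the 5 strongest per direction in a fit. Genes of the Xcl1 split were chosen after their values were seen. Rows for vectors and tags held 5.43e-05% of UMIs. p-values rest on the spread between pooled libraries, which edgeR shares in part over all tested genes.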

Additional observations from a re-analysis of the deposited data

Results flagged for a closer look

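For 5 genes the difference between Btnl2-KO and WT differed between activated and other cells by a test of that difference (edgeR, joint fit). The log2 values were 1.21 for Crtam, 0.84 for Xcl1, 0.82 for Gm156, -0.68 for Nfkbid and -0.61 for Cd69. For 5 further genes the difference between ileum and duodenum differed between the classes, by 0.97 for Phb2, -2.34 for Klra5, -1.14 for Serpina3g, -1.06 for Tuba1b and -0.64 for Gzmb.

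In all, 58 sets of values were searched for a library far from the others of its set, which chance finds in about 5% of them. Most were bulk values of a gene in a group of 4 libraries. The rest were single-cell values over the 6 libraries: log2 ratios of genes outside the rule and the share of activated cells. The search found 2, both in bulk libraries. A jejunal Btnl2-KO library had 5.68 CPM of Egr3, above the other 3, and an ileal WT library had 6.33 CPM of Csf2, below the other 3.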

How the results depend on the processing

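No paired analysis was possible because no label number ties bulk libraries of different groups to shared animals, and the single-cell fits already held segment or genotype as a block. No mean share difference changed direction, but single ones did: the jejunal Btnl2-KO share was above WT after thinning (0.597 against 0.574%) and with at least 5 UMIs (0.604 against 0.501%), and the WT ileal share was below the duodenal with at least 5 UMIs (0.513 against 0.607%) and without the deepest cells (0.967 against 0.985%). The mean share of activated cells was 0.616% after thinning to 3000 UMIs and 0.629% with at least 5 UMIs asked for, and 1.15 to 1.24% with 1 library left out. The list median of EGR and NR4A genes was 3.69 with at least 5 UMIs and 3.0 without the cells of 10 or more, an alternative chosen after seeing the data. That of chemokines was 4.06 after thinning, 3.96 with at least 5 UMIs, 3.84 without cells above the 95th percentile of UMIs and 3.19 without cells of 10 or more. The cytokine median was then 0.6.

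DESeq2 called 0 genes in all 4 fits of single-cell sums. Without a filter on low counts 11 genes passed between genotypes, and without cells of 10 or more UMIs the class difference in the genotype effect held 1 gene. With 1 library left out, 0 to 14 genes passed between genotypes, 3 to 26 between segments, and 1 to 13 and 0 to 11 for the class differences in segment and genotype effects. In bulk WT IELs, DESeq2 called 502 genes, a fit of all 22 libraries 125 and the epithelial covariate 503, with 156 to 618 when 1 library was left out. Between genotypes DESeq2 called 4 genes in duodenum, 2 in jejunum and 221 in ileum, and the fit of all libraries 2 in jejunum and 2 in ileum. Leaving out 1 library gave 0 to 3, 0 to 0 and 0 to 60. The causes were not tested. Counts rest on 39 to 68 activated cells per library.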
